A study of Mus musculus with 4 samples.

Results

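The aryl hydrocarbon receptor genes described here are the receptor Ahr, its partner Arnt, its repressor Ahrr and the target genes Cyp1a1, Cyp1b1, Tiparp and Nqo1. They were chosen by symbol, 7 genes of the 31227 rows in the deposited count table. RNA was sequenced from colonic epithelial cells of mice aged 8 to 10 weeks that drank 3.5% dextran sulfate sodium (DSS), which injures the colonic epithelium, for 5 days and then plain water until day 7. There were 2 libraries from wild-type mice (WT, replicates 1 and 3) and 2 from mice with an epithelial knockout of Smad4, the common Smad of TGF-β and BMP signalling (Smad4 KO, replicates 1 and 2). All 4 libraries came from DSS-treated mice, so the comparison is between genotypes under DSS. The sources used here name neither the driver of the knockout nor the strain, and do not say that each library is a separate mouse. The p-values therefore reflect the spread between the libraries alone, and that spread may be technical.

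The aryl hydrocarbon receptor (AhR) is a transcription factor that small molecules switch on, among them indoles from the diet and from bacterial breakdown of tryptophan. Without a ligand it is held in the cytoplasm by a chaperone complex. With one it enters the nucleus, pairs with Arnt and binds response elements near its target genes, several of which encode proteins that end the signal: Cyp1 enzymes oxidise the ligand, Ahrr competes for Arnt, and Tiparp ADP-ribosylates the receptor. In the gut the receptor is known for its part in barrier maintenance, in epithelial cells and in lymphocytes of the mucosa.

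The libraries held 42577920 to 67927291 counts, so that 1 count stood for 0.0150 to 0.0229 CPM (counts scaled to libraries of equal size). Smad4 itself went with the labels, with 152 and 180 CPM for WT against 51.5 and 41.1 CPM for KO. Epithelial markers were abundant in each library, with Krt8, an epithelial keratin, at 5965 ± 334 CPM (SD, n = 2) in WT and 5625 ± 64.3 CPM in KO. Of 10 such markers, 4 rose in KO (edgeR, adjusted p under 0.05) and 1 fell, looked up after their values were seen: Krt20 1.65-fold, Cdx2 1.50-fold, Epcam 1.23-fold and Krt18 1.22-fold higher, and Krt19 1.17-fold lower. Among all tested genes 8.83% rose and 6.40% fell. Markers of other cells were lower in level, and some of these differed between genotypes too. Of 7 tested neutrophil markers 5 rose in KO, and the 8 listed summed to 9.75 to 13.6 CPM in WT and to 112 to 113 CPM in KO, with Camp at 0 in each library and S100a9, the most abundant by the mean over the 4 libraries, at 3.91 ± 0.758 and 43.0 ± 0.488 CPM. Of 9 macrophage and dendritic cell markers 3 rose (sums of 173 to 194 and 172 to 177 CPM, most of it Cd14 at 170 ± 15.5 and 135 ± 2.04 CPM). Of 11 tested T cell and innate lymphoid cell markers 3 rose, looked up after their values were seen: Gata3 (0.337 ± 0.347 and 5.62 ± 0.355 CPM), Il17a (0 and 0.563 ± 0.137 CPM) and Cd4 (0 and 0.409 ± 0.0145 CPM). These 3 were a small part of the list, whose 12 genes summed to 40.3 to 43.7 CPM in WT and 55.6 to 57.9 CPM in KO. Il23r had no count in WT or in KO replicate 1, and 8 counts in KO replicate 2. Of 6 tested fibroblast markers 2 rose (26.3 to 26.7 and 51.8 to 57.3 CPM over 7 genes, with Fbln1, the most abundant, at 10.0 ± 0.400 and 31.4 ± 4.67 CPM), and Lum, a matrix proteoglycan, had 8 counts in KO replicate 1 and 0 in each of the other libraries. None of 2 tested B and plasma cell markers or of 4 tested endothelial markers passed, and none had an unadjusted p under 0.05. The most abundant of these were Ms4a1 (0.401 ± 0.243 and 0.566 ± 0.0476 CPM) and Pecam1 (1.10 ± 0.134 and 1.88 ± 0.206 CPM). What these cells contributed to the results below was not tested, and in such bulk samples fewer cells of a type cannot be told apart from less RNA per cell.

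The upstream sequences of the 5 genes that the receptor is known to induce are shown because their transcripts ranged from no count in any library (Cyp1a1) to a rise in KO that passed the test (Tiparp). They run 5′ to 3′ on the strand of each gene, end at the annotated start (RefSeq, GRCm38.p6) or before the first annotated exon, and have GCGTG, the core of the element that the receptor and Arnt bind, in capitals (CACGC where it lies on the other strand). They are chr9:57697363-57697612 (plus strand), chr17:79715062-79715311 (minus strand), chr13:74292332-74292581 (minus strand), chr3:65528197-65528409 (plus strand) and chr8:107403207-107403455 (minus strand). In GENCODE M21 (GRCm38) Cyp1a1 begins farther upstream, at 57687928. The stretch printed for it therefore lies before the RefSeq start but within the GENCODE gene.
Cyp1a1: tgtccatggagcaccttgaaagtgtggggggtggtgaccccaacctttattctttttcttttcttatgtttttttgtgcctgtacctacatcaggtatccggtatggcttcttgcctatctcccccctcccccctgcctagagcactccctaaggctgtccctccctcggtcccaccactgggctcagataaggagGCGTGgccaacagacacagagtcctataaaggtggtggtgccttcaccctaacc
Cyp1b1: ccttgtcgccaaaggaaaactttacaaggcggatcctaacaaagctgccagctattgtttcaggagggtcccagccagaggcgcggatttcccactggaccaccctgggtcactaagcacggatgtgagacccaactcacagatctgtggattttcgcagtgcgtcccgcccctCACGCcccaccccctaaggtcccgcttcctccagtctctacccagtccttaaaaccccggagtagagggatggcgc
Ahrr: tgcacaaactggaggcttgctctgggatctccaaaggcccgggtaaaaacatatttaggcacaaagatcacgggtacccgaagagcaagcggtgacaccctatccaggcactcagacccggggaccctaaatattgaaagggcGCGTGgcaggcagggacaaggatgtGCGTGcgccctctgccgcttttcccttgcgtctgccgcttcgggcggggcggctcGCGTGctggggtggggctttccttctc
Tiparp: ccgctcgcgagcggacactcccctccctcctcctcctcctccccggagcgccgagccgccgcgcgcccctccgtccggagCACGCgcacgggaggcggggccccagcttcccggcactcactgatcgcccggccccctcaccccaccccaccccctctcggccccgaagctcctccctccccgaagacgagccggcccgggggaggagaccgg
Nqo1: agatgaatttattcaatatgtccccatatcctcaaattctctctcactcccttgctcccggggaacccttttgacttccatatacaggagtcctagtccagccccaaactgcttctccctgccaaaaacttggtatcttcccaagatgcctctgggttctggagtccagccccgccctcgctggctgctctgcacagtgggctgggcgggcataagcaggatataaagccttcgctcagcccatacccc
RefSeq's table matched 6 of the 7 genes, all but Ahr. In the 250 bases before the start site, the core lay 3 times in Ahrr, its first bases 107, 82 and 27 bases before the start, and once each in Cyp1a1 (54 bases before), Cyp1b1 (76), Tiparp (170) and Arnt (29). The window of Nqo1 held none. The core was common: 28.2% of 32851 windows of that length held it on either strand, and 8.63% held it at least 2 times. The longer form TNGCGTG, which contains the core, was found in Ahrr once and in 4.10% of all windows. The core of the antioxidant response element, TGACNNNGC, was found 2 times in Arnt, in none of the other 5 windows and in 10.2% of all. The hypoxia element was searched for in its A form only, ACGTG, which shares CGTG with the receptor's core GCGTG. That form was in none of the 6 windows and in 16.6% of all, and other forms are not covered by this count. These are matches of letters, not sites of binding. Elements outside the window, for Nqo1 as for the other genes, are not covered by these counts. For Cyp1a1 the known enhancer lies farther upstream than this window.

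**Figure D1:**
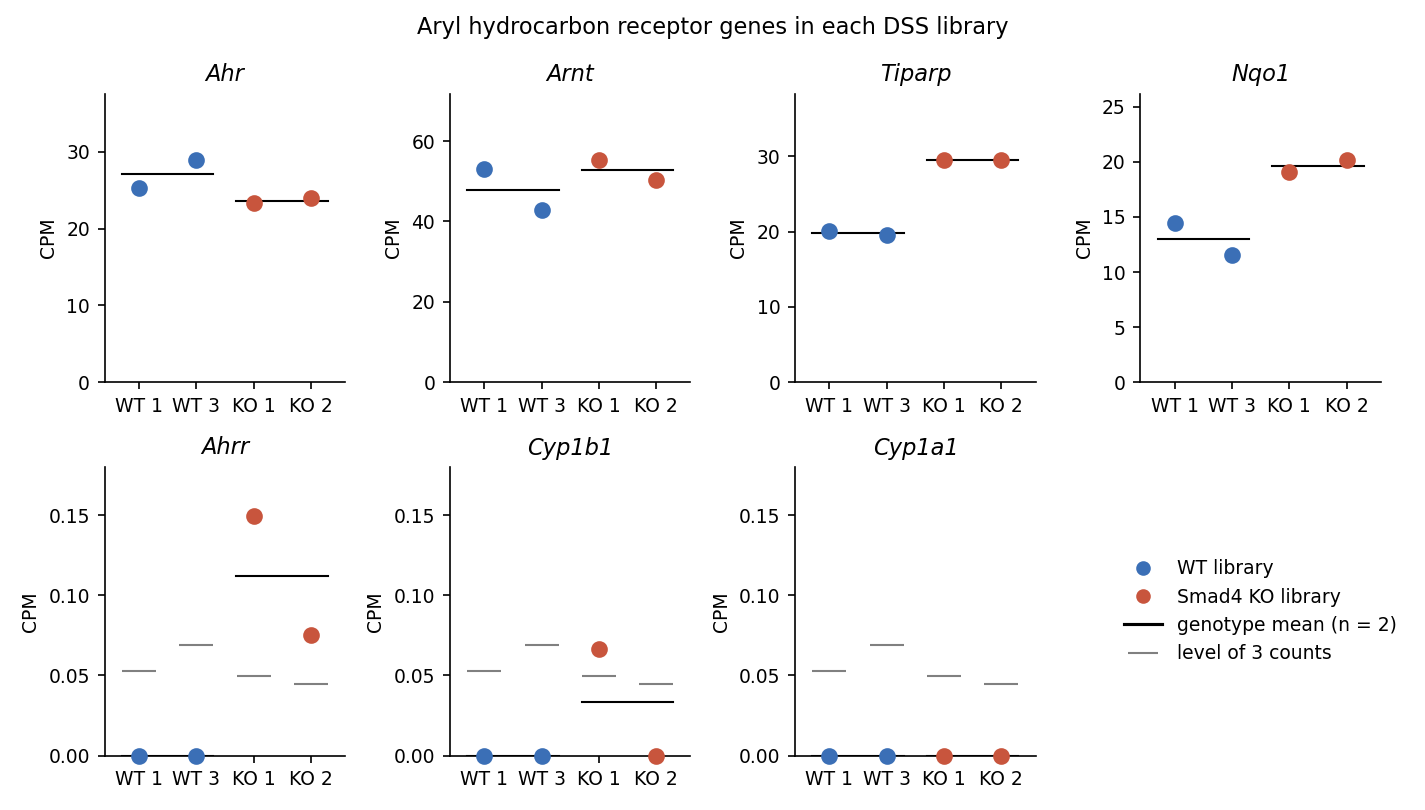
Level of each of the 7 genes in CPM (y axis, from 0) in the 2 WT and 2 Smad4 KO libraries (x axis, points), with the genotype mean (black line, n = 2) and, for the 3 genes near 0, the level that 3 counts would give in that library (grey dash). Tiparp stood at 29.5 CPM in both KO libraries, above both WT libraries, while Cyp1a1 had no count in any library.

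Receptor and partner were both expressed in each library and neither passed the test. Ahr (chromosome 12, 35497974 to 35535038, minus strand, GENCODE M21 on GRCm38) had 25.2 and 28.9 CPM in WT and 23.3 and 24.0 CPM in KO. Its groups did not overlap, WT being the higher, but the gap between them was smaller than the gap between the WT libraries. Among all tested genes 28.4% had non-overlapping groups with KO the lower. The log2 fold change of KO over WT was -0.20 (SE 0.112, 95% confidence interval -0.48 to 0.09, adjusted p = 0.317 by edgeR's quasi-likelihood test with Benjamini-Hochberg adjustment). The interval runs from 0.717-fold to 1.06-fold. A long noncoding RNA on the other strand overlaps Ahr, Gm48236, and had 3 counts in all, in KO replicate 2.

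Arnt (chromosome 3, 95434388 to 95497240, plus strand), which also pairs with the hypoxia-inducible factors, had 53.0 and 42.8 CPM in WT and 55.3 and 50.2 CPM in KO. Its groups overlapped, and the lowest library was WT replicate 3. The log2 fold change was 0.14 (SE 0.128, 95% confidence interval -0.19 to 0.46, edgeR adjusted p = 0.543), and it was -0.0057 without WT replicate 3.

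The Cyp1 enzymes and the repressor were at or near the limit of detection. Cyp1a1 (chromosome 9, 57687928 to 57703824, plus strand), the cytochrome P450 best known as a readout of the receptor, had 0 counts in each of the 4 libraries. A count of 0 allows up to 3 counts, which is 0.0450 to 0.0688 CPM for a single library, 0.0299 CPM over the WT pair and 0.0237 CPM over the KO pair. These limits cover counting error only. Cyp1b1 (chromosome 17, 79701537 to 79715061, minus strand), a cytochrome P450 that also oxidises receptor ligands, had 4 counts in KO replicate 1 (0.0665 CPM) and 0 in the other libraries. Ahrr (chromosome 13, 74211118 to 74292331, minus strand) had 0 counts in both WT libraries and 9 and 5 counts in the KO libraries (0.150 and 0.0749 CPM).

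These 3 genes stayed below the filter on low counts and so have no test in the fit. Against the limit of 3 counts over the WT pair, the KO level was 3.69-fold for Ahrr and 1.05-fold for Cyp1b1. The latter rests on the counts of 1 library, and both folds take the KO counts as exact. With no filter, edgeR gave Ahrr an adjusted p of 0.390 and Cyp1b1 one of 0.630. So Ahrr was counted in both KO libraries and in neither WT library, at a level too low for the difference to pass. The KO libraries were also the deeper, with 61260099 and 67927291 counts against 56018009 and 42577920 in WT. The share of all genes counted in KO alone was not taken. Between genotypes no difference in Cyp1a1 was detectable at this depth.

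Of the 4 tested genes, Tiparp rose and the other 3 did not pass. In the same fit 15.2% of 15838 tested genes passed in either direction and 8.83% rose. Tiparp (chromosome 3, 65528410 to 65555518, plus strand) had 20.1 and 19.6 CPM in WT and 29.5 CPM in both KO libraries. The groups were far apart and the libraries of a genotype nearly equal, at 19.9 ± 0.371 CPM in WT and 29.5 ± 0.0296 CPM in KO (SD, n = 2). It rose 1.48-fold (log2 fold change 0.57, SE 0.0954, 95% confidence interval 0.33 to 0.81, edgeR adjusted p = 0.0177). The fold stayed at 0.55 to 0.58 on the log2 scale whichever library was left out, but the call was lost without KO replicate 1 (edgeR adjusted p = 0.102) and without KO replicate 2 (edgeR adjusted p = 0.122). A transcribed pseudogene on the other strand, 4931440P22Rik, overlaps Tiparp in the annotation. It had no row in the count table, nor did Gm42672, which overlaps Arnt, so their levels are not known here.

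Nqo1 (chromosome 8, 107388225 to 107403206, minus strand), a quinone reductase that both the receptor and the oxidative stress factor Nrf2 induce, had 14.4 and 11.6 CPM in WT and 19.1 and 20.2 CPM in KO. Both KO libraries lay above both WT libraries, as for 31.0% of all tested genes, and the WT libraries were the more spread (13.0 ± 2.01 against 19.6 ± 0.764 CPM). The log2 fold change was 0.59 (SE 0.145, 95% confidence interval 0.23 to 0.96, edgeR adjusted p = 0.0529), a fold of 1.51 that narrowly missed the threshold. It passed with DESeq2 (adjusted p = 0.0109), limma-voom (adjusted p = 0.0458), no filter on low counts (edgeR adjusted p = 0.0371), a filter of 1 CPM (edgeR adjusted p = 0.0481) and without WT replicate 1 (edgeR adjusted p = 0.0309). Over all alternatives its adjusted p ran from 0.0109 to 0.238. Whether Tiparp and Nqo1 differ in their change was not tested.

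**Figure D2:**
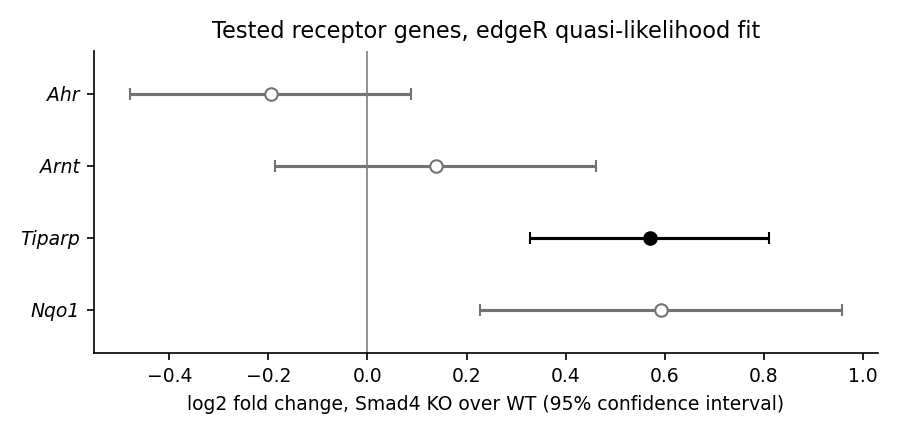
Log2 fold change of Smad4 KO over WT (x axis) with its 95% confidence interval for the 4 genes that passed the filter on low counts (y axis). The filled point is Tiparp, which passed at 0.57, and the open points are Ahr, Arnt and Nqo1, which did not pass.

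**Figure D3:**
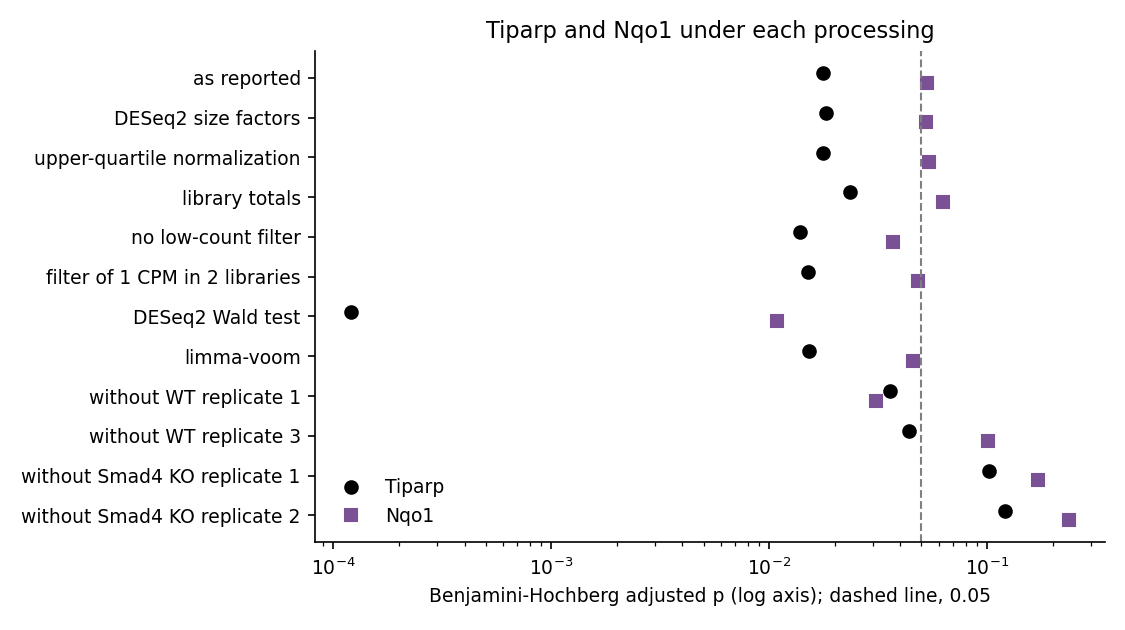
Adjusted p (x axis, log scale) of Tiparp (circles) and Nqo1 (squares) in the fit as reported and under each of the 11 alternatives (y axis), with the threshold of 0.05 as a dashed line. Tiparp crossed the line only where a Smad4 KO library was left out, and Nqo1 lay on either side of it, from 0.0109 to 0.238.

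Levels of different genes were compared per kilobase of exon. As means of the 4 libraries, Nqo1 had 10.5, Arnt 6.29, Tiparp 5.66 and Ahr 4.12 CPM per kilobase, while Ahrr had 0.0059 and Cyp1b1 0.0028. In the WT libraries Tiparp (4.62 and 4.50 CPM per kilobase) and Ahr (4.10 and 4.69) overlapped, and Arnt (6.62 and 5.35) lay above both. In the KO libraries Tiparp (6.77 and 6.76) stood level with Arnt (6.90 and 6.27) and above Ahr (3.78 and 3.89). Nqo1 was the highest of the 7 in both genotypes, at 9.29 and 7.46 in WT and 12.3 and 13.0 in KO. By level per kilobase, Ahr stood above 60.1% and Tiparp above 65.7% of 19611 genes with any count, and Ahrr above 2.40%.

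The genes whose pattern over the 4 libraries was most like that of Tiparp were Heph, Ptpn12 and AI661453. Likeness was the root mean square difference of centred log2 CPM, which was 0.0129, 0.0145 and 0.0155. Heph, a copper ferroxidase that helps iron leave enterocytes, had 191 and 185 CPM in WT and 285 and 280 CPM in KO. Ptpn12, a tyrosine phosphatase, had 41.8 and 40.3 CPM in WT and 62.3 and 61.1 CPM in KO. AI661453 had 97.1 and 96.3 CPM in WT and 146 and 142 CPM in KO. Over only 4 libraries this likeness is a description.

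The heat shock chaperones that hold the receptor did not pass, and 3 nuclear cofactors fell. Of 12 tested genes of the receptor complex and its cofactors, 3 fell and 0 rose by edgeR (1 had an unadjusted p under 0.05 and a higher level in KO, and by DESeq2 1 rose, by limma-voom 0), with a median log2 fold change of -0.07 against 0.0075 over all tested genes. Among all tested genes 6.40% fell. The coactivators Ncoa1 (89.0 ± 6.06 to 62.2 ± 3.42 CPM, edgeR adjusted p = 0.0168) and Ncoa3 (83.2 ± 1.48 to 63.1 ± 1.60 CPM, edgeR adjusted p = 0.0188) fell 1.43-fold and 1.32-fold. The corepressor Nrip1 fell 1.29-fold (123 ± 5.60 to 95.0 ± 5.76 CPM, edgeR adjusted p = 0.0364). All 3 lost their calls without KO replicate 1 (edgeR adjusted p = 0.0822 to 0.136) and without KO replicate 2 (edgeR adjusted p = 0.128 to 0.236), and Nrip1 also without WT replicate 3 (edgeR adjusted p = 0.0817). Arnt2, the close relative of Arnt, had 1.64 and 1.12 CPM in WT and 3.83 and 2.94 CPM in KO (edgeR adjusted p = 0.0595). These chaperones and their cochaperone Ptges3, looked up after the values were seen, had log2 fold changes of -0.04 for Hsp90ab1, -0.13 for Hsp90aa1 and 0.14 for Ptges3.

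Among other genes that the receptor is known to induce, about as many rose as did not pass. Of 20 listed, 3 had no count in any library (Cyp1a2, the closest relative of Cyp1a1, the aldehyde dehydrogenase Aldh3a1, and Fgf21), 5 in all stayed below the filter, and the 15 tested split into 7 that rose, 1 that fell and 7 that did not pass, where 8.83% of all tested genes rose and 6.40% fell. By DESeq2 9 rose and 1 fell, and by limma-voom 8 and 1. Their median log2 fold change was 0.82, also with Serpinb2 at its lower bound. Without KO replicate 1, and likewise without KO replicate 2, 4 of them passed. The glycoprotein hormone Stc2 rose 2.61-fold, from 30.0 and 31.2 CPM to 80.7 and 78.8 CPM (edgeR adjusted p = 0.000639). The amino acid transporter Slc7a5, which carries tryptophan and kynurenine, rose 1.97-fold, from 25.9 and 28.0 CPM to 52.3 and 53.8 CPM (edgeR adjusted p = 0.00280).

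The cyclin Ccng2 rose 1.53-fold, from 108 and 107 CPM to 163 and 165 CPM (edgeR adjusted p = 0.00336). Scin, an actin-severing protein, fell 1.51-fold, from 181 and 163 CPM to 115 and 113 CPM (edgeR adjusted p = 0.00752), a call lost without KO replicate 1 (edgeR adjusted p = 0.0564) and without KO replicate 2 (edgeR adjusted p = 0.0702). The 4 other risen genes are named after their values were seen. They were the glucuronosyltransferase Ugt1a1 (2.17-fold), the glutathione transferase Gsta1 (1.76-fold), the EGF receptor ligand Ereg (2.93-fold) and the serpin Serpinb2. Serpinb2 had no count in WT and 41 and 21 counts in KO (edgeR adjusted p = 0.0474, a call lost with any 1 library left out). With the KO counts taken as exact, that was 16.3-fold the limit of 3 counts over the WT pair. Ereg no longer passed without KO replicate 1 (edgeR adjusted p = 0.0709) or KO replicate 2 (edgeR adjusted p = 0.0516). Gsta1 lost it without WT replicate 3, KO replicate 1 or KO replicate 2 (edgeR adjusted p = 0.0861, 0.193 and 0.0959). Ugt1a1 shares exons with other Ugt1a genes and Gsta1 has near-identical copies, so their counts are uncertain. Most of these genes answer to other signals as well, and in the same libraries 5 of 7 tested neutrophil markers rose, whose part here was not tested.

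Nrf2 target genes, among which Nqo1 is often counted, changed in a minority. Of 20 tested, 4 rose and 0 fell by edgeR (8 higher and 1 lower in KO at an unadjusted p under 0.05), against 6 and 1 by DESeq2 and 5 and 0 by limma-voom. By edgeR 20% of the list rose, against 8.83% of all tested genes. The share called in either direction was 20% in the list and 15.2% of all tested genes. The median log2 fold change was 0.12, and 7 passed without WT replicate 1. The malic enzyme Me1, a source of NADPH, rose 3.57-fold, from 8.29 and 8.30 CPM to 28.2 and 31.0 CPM (edgeR adjusted p = 0.000782). The cystine importer Slc7a11 rose 3.37-fold (4.06 ± 0.292 to 13.7 ± 1.35 CPM, edgeR adjusted p = 0.00261). Sulfiredoxin, Srxn1, rose 1.79-fold (106 ± 6.57 to 190 ± 0.992 CPM, edgeR adjusted p = 0.00212). Thioredoxin reductase Txnrd1 rose 1.25-fold (357 ± 15.3 to 447 ± 8.64 CPM, edgeR adjusted p = 0.0207), which no longer passed without KO replicate 1 (edgeR adjusted p = 0.153) or KO replicate 2 (edgeR adjusted p = 0.128).

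Genes of the hypoxia-inducible factors, which share Arnt with the receptor, were mostly higher in KO. Like the other lists, this one was chosen with earlier results of these data known. Of 17 tested partners of Arnt and hypoxia targets, 11 rose (64.7%, against 8.83% of all tested genes) and 0 fell by edgeR (12 and 0 at an unadjusted p under 0.05, 12 and 0 by DESeq2, 11 and 0 by limma-voom), with a median log2 fold change of 0.62. Without KO replicate 1, and likewise without KO replicate 2, 5 passed. Ndrg1, a stress-response gene, rose 2.08-fold, from 152 and 156 CPM to 322 and 319 CPM (edgeR adjusted p = 0.000554). The oxygen sensor Egln3 rose 2.18-fold, from 75.3 and 77.8 CPM to 164 and 169 CPM (edgeR adjusted p = 0.000684). The glucose transporter Slc2a1 rose 1.80-fold (166 ± 1.65 to 299 ± 20.4 CPM, edgeR adjusted p = 0.00193). Carbonic anhydrase Car9 rose 1.65-fold (88.3 ± 2.77 to 146 ± 1.37 CPM, edgeR adjusted p = 0.00253). Among the partners themselves, looked up after the values were seen, Hif1a rose 1.33-fold (178 ± 7.43 to 236 ± 23.2 CPM, edgeR adjusted p = 0.0370), a call lost with any 1 library left out (edgeR adjusted p = 0.0577 to 0.178) and with scaling by library totals (edgeR adjusted p = 0.0569). Epas1 had 206 and 213 CPM in WT and 210 and 211 CPM in KO.

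Enzymes that turn tryptophan into receptor ligands or divert it moved in opposite directions. Of 17 listed, 2 had no count and 13 were tested, with 3 risen, 4 fallen and 6 that did not pass by edgeR (2 risen and 5 fallen by DESeq2, 3 and 5 by limma-voom). Among all tested genes 8.83% rose and 6.40% fell. The median log2 fold change of the list was -0.01. Without KO replicate 1, 4 passed. Ido1, which opens the ring of tryptophan on the way to kynurenine, rose 8.88-fold, from 52.8 and 51.1 CPM to 459 and 463 CPM (edgeR adjusted p = 4.92e-05). Tph1, which commits tryptophan to serotonin, rose 2.23-fold, from 20.0 and 22.7 CPM to 48.4 and 46.6 CPM (edgeR adjusted p = 0.00273). The monoamine oxidase Maob fell 4.75-fold, from 25.5 and 26.0 CPM to 5.86 and 4.98 CPM (edgeR adjusted p = 0.000735), and the kynurenine aminotransferase Kyat1 fell 2.54-fold, from 25.9 and 27.4 CPM to 9.71 and 11.2 CPM (edgeR adjusted p = 0.00271). Kynu, which cleaves kynurenine and was looked up after the values were seen, had 12 counts in WT replicate 1, 4 in KO replicate 1 and 0 in the other 2 libraries. Between the same libraries 3 of 11 tested T cell and innate lymphoid cell markers rose, and the part of such cells in these changes was not tested.

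**Figure D4:**
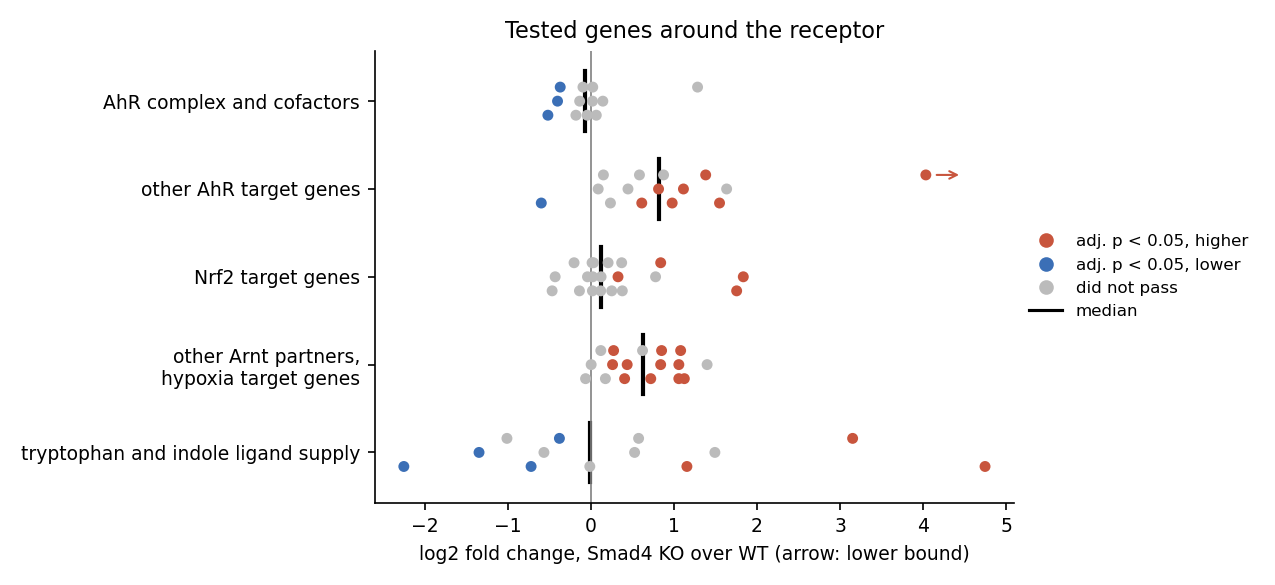
Log2 fold change of Smad4 KO over WT (x axis) for each tested gene of the 5 lists around the receptor (y axis), with genes that passed as higher in red, those that passed as lower in blue, those that did not pass in grey and the list median as a black bar. Of the hypoxia list 11 of 17 genes lie in red, and Serpinb2, which had no count in WT, is drawn at its lower bound with an arrow.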

How the data were processed

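RNA from colonic epithelial cells was reverse transcribed with random hexamers, from 1.5 µg of total RNA per the labels' protocols. The authors deposited whole-number counts per Ensembl gene, not normalized, 1 column per library, and 0 further columns. The submitters' processing notes name HISAT2 2.1.0, SAMtools 1.9, StringTie 1.3.3b, FastQC 0.19.7 and GRCm38 (mm10). Not given in the sources used here: counting tool, annotation release, strandedness and handling of multiply mapped reads.

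Symbols and positions came from GENCODE M21 (GRCm38), which named 31207 of 31227 rows. The filter (filterByExpr) retained 15838 of the 19618 genes that had a count. After TMM scaling, genotype was tested in edgeR 4.0.16 (quasi-likelihood F test, R 4.3.3), with Benjamini-Hochberg adjustment over all tested genes and a threshold of 0.05. CPM use TMM-scaled library sizes, and the SE is the log2 fold change divided by the root of F. Limits for 0 use 3 counts, per library or over a pair as stated. Folds against such a limit, also called lower bounds, take the counts of the other genotype as exact. The fit was also run on simulated data with 200 changed genes, in 3 runs, and the share of them recovered is not reported here. Replicates were not duplicates of each other (mean chi-square per gene 37.6 for WT and 31.0 for KO, where about 1 would be noise) and were counted separately.

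The genes and lists were chosen with earlier results of these data known. Named are Smad4, the 7 genes, up to 4 tested genes of each list by smallest p, the most abundant marker of each marker list (1 list excepted), and the 3 genes nearest to a member that passed. Others are said to be chosen after their values were seen. Values of 2 listed genes are not reported here. Alternatives were DESeq2 size factors, upper-quartile scaling, library totals, no filter, a minimum of 1 CPM in 2 libraries, limma-voom (limma 3.58.1), DESeq2 1.42.0 and leaving out each library.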

Additional observations from a re-analysis of the deposited data

How the results depend on the processing

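The log2 fold changes of Tiparp (0.52 to 0.58) and Nqo1 (0.45 to 0.75) were positive and that of Ahr (-0.30 to -0.09) negative under all 11 alternatives, and Ahr and Arnt passed under none (adjusted p at least 0.138). Arnt ran from -0.0057 without WT replicate 3 to 0.29 without WT replicate 1. Of the 7 genes 1 passed as reported and 2 passed with no low-count filter, with a filter of 1 CPM, with DESeq2 and with limma-voom. With a library left out this count was 0 to 2. The count over all genes was 2412, and 975 to 2573 with a library left out, the lowest 2 (978 and 975) without KO replicate 1 and KO replicate 2. The numbers that passed with a library left out were 0 to 3 for the receptor complex, 4 to 9 for the other receptor targets, 3 to 7 for Nrf2 targets, 5 to 9 for the hypoxia list and 4 to 7 for tryptophan enzymes. DESeq2 called 7 Nrf2 targets against 4. Over the 38 genes followed singly (the tested members and the list genes that passed or are named by rule), 35 of 45 lost calls came with a KO library left out. These fits have fewer samples and assume that the lone library varies like the other genotype. No paired analysis was made because the labels give no pairing of libraries. The genotypes share only replicate number 1, and nothing says that equal numbers mark a pair. Depth limits Cyp1a1, Cyp1b1 and Ahrr.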
